A study of Mus musculus with 11 samples.

Results

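The genes described here are 10 immediate early AP-1 and stress factors: Fos, Fosb, Fosl1, Jun, Junb, Jund, Egr1, Atf3, Ier2 and Ier3. They were chosen by gene symbol, with earlier results of these data known, and all 10 were measured among 23185 genes with 1 symbol in each of 11 arrays. Expression was measured on a 1-colour Affymetrix mouse whole-transcript array (MoGene 2.0 ST) in sorted mouse liver cells. YFP, a yellow fluorescent protein, served as the sorting label, and the study's title concerns the biliary epithelium, the cells that line bile ducts, and the liver progenitor cells that arise from it after injury. The YFP+ CDE group (3 arrays) came from mice treated with CDE, and the YFP+ DDC group (3 arrays) from mice on a DDC diet. CDE is commonly a choline-deficient diet with ethionine and DDC a diet with a compound that causes porphyrins to build up, and both are used in mice to bring on a ductular reaction. The YFP+ UTR group (2 arrays) and the YFP- group (3 arrays) came from untreated mice. One protocol is given for every sample, and it describes 4 mice on DDC for 5 weeks. The length of the CDE treatment, the promoter behind the YFP label, the strain, the age and the number of mice per array were not stated in what was used here. Livers were perfused with EGTA and then with collagenase for 11 minutes. The remaining tissue was stirred for 30 minutes at 37 °C with collagenase and pronase before live cells were sorted. All 4 groups carry this isolation, and the labels title all 11 samples as liver progenitor cells, the YFP- ones included.

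Immediate early genes are switched on within minutes of a stimulus by factors already present in the cell, without new protein synthesis. Serum response factor and kinases of the MAP kinase cascade drive many of them, and the proteins of the Fos and Jun families pair with each other to form AP-1, a transcription factor that binds DNA through a basic leucine zipper. In liver, Fos, Jun and Egr1 are known to respond within the first hours of injury or partial resection. Warm enzymatic dissociation of tissue is also known to induce these genes. Every sample was isolated with enzymes, and no array without isolation is there to compare. The response to isolation may differ between arrays or diets and was not measured apart. A signal from the diet in the animal and a signal from the isolation of the cells therefore cannot be told apart on these arrays.

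The labelled cells were checked against marker genes. On the 8 YFP+ arrays, the biliary keratin Krt19 read 10.11 to 10.64 on the log2 scale, and 6 measured biliary markers averaged 9.98 to 10.35. All 6 were higher in YFP+ UTR than in YFP- cells (limma, adjusted p under the threshold of 0.05). The 3 YFP- arrays stood apart from each other. YFP- 1 had a biliary marker mean of 7.83 against 4.94 and 4.63 on YFP- 2 and YFP- 3, YFP- 2 had the high lymphocyte mean (10.45 against 4.41 and 4.66), and YFP- 3 the high macrophage mean (11.57 against 8.56 and 8.59). YFP- 1 also had the highest endothelial mean (11.84 against 10.25 and 10.64) and stellate cell and fibroblast mean (7.54 against 5.71 and 6.05). The neutrophil and monocyte mean was highest on YFP- 2 (10.36, against 8.47 on YFP- 1 and 7.61 on YFP- 3). The YFP+ arrays correlated with each other at 0.980 to 0.991 over all genes and the YFP- arrays at 0.888 to 0.925. Nothing in the labels ties the arrays to separate mice, so the p-values cover the spread among these arrays alone and that spread may be technical. In sorted bulk RNA, more cells with a transcript and more transcript per cell cannot be told apart.

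Short stretches of promoter are shown for members whose values carry the description below. They hold letters that match a TATA box or elements known to answer stress and growth signals. Whether these matches act in these cells was not tested. Promoters of 300 bases (250 before to 50 after the start site) were matched in RefSeq, build GRCm38.p6, for 7 members: Fos, Fosb, Jun, Junb, Jund, Atf3 and Ier3. Each stretch is 30 bases, 5′ to 3′ on the gene's own strand, with the searched element in capitals. The first 2 are Fos on chromosome 12, plus strand, with the shortened cyclic AMP response element TGACG at chr12:85473812-85473841 and a TATA box at chr12:85473845-85473874. Jun on chromosome 4, minus strand, holds an ATF-type element at chr4:95052249-95052278. Atf3 on chromosome 1, minus strand, holds the same 5 letters in antisense at chr1:191183323-191183352, and Ier3 on chromosome 17, plus strand, an NF-kB-type element in antisense at chr17:35821611-35821640.
Fos TGACG: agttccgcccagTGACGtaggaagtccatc
Fos TATA box: tcacagcgcttcTATAAAggcgccagctga
Jun: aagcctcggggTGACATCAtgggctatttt
Atf3: ttaatagcattaCGTCAgcctgggattggt
Ier3: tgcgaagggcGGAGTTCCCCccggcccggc

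The letters TGACATCA, searched on both strands, occurred in Jun alone among the 7 members and in 3.62% of 32851 promoters of the same length. The letters TGACG, which begin the full element TGACGTCA, occurred in 4 of 7 members (Fos, Fosb, Junb and Atf3) and in 20.8% of all promoters. The NF-kB-type element was searched on both strands as the loose pattern GGGRNWYYCC. There R is A or G, N any base, W is A or T, and Y is C or T. This pattern occurred in 3 of 7 members (Fos, Fosb and Ier3) and in 4.51% of all promoters. TATAAA was found in Fos and Junb and in 13.6% of all promoters, and the SP1 box GGGCGG in 5 of 7 members and in 35.7%. CCAAT was found in 4 of 7 members and in 37.4% of all promoters. The full TGACGTCA, the AP-1 element TGANTCA and the CArG box that serum response factor binds were found in 0 of the 7 windows, against 1.79%, 7.81% and 1.63% of all promoters. These are matches of letters within 300 bases only.

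Most members were among the brighter features on every array. Jun lay between percentiles 95.5 and 99.1 of all genes on its array, Ier3 between 91.6 and 99.3, and Junb between 89.3 and 98.7. Fosl1 was the dim exception, at percentile 31.8 to 43.5 on 9 arrays, and at 70.2 and 52.2 on DDC 1 and DDC 2. The other 9 members lay above the middle of the array on all 11 arrays, in untreated biliary cells as well as after both diets.

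**Figure D1:**
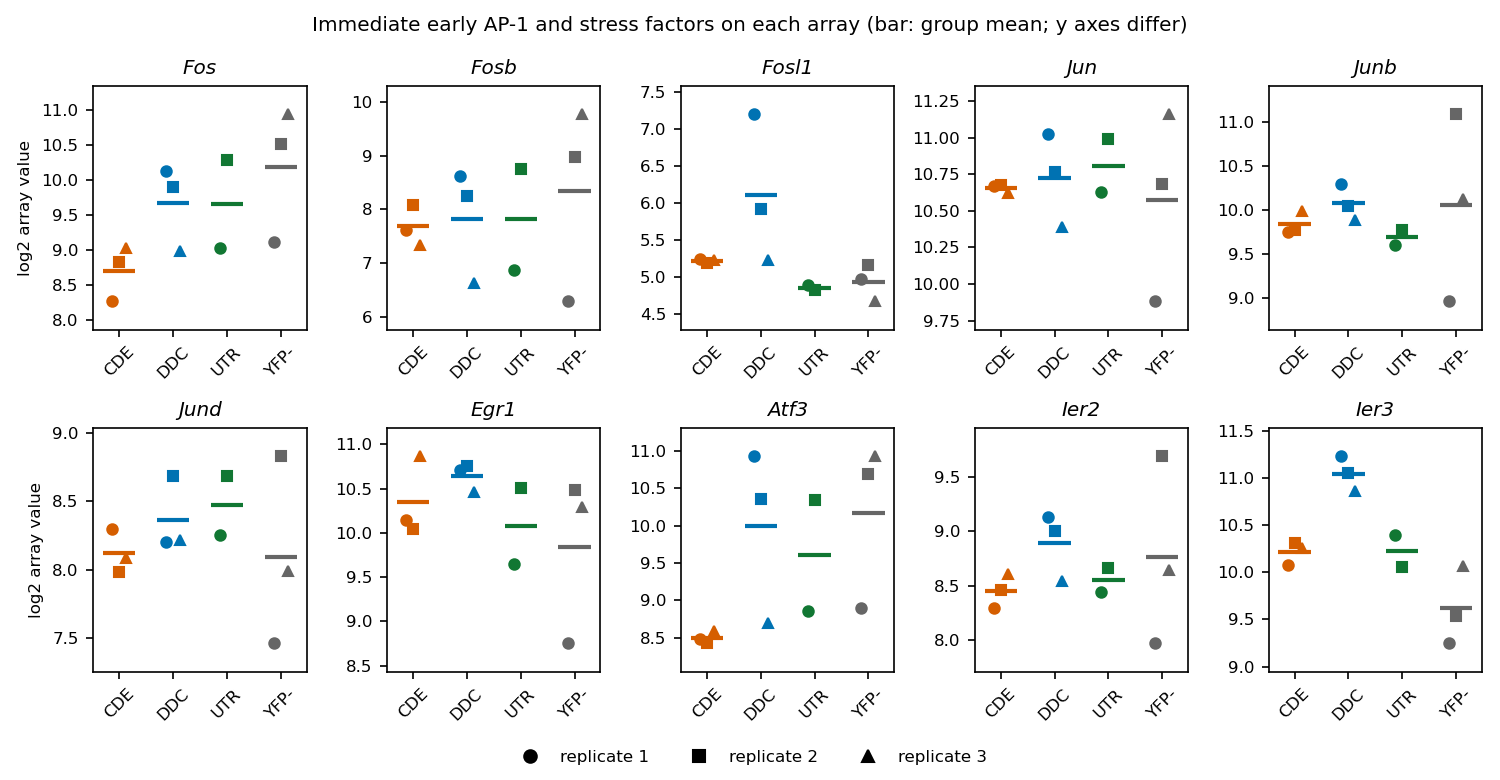
Log2 array value (y axis, scale differs by panel) of each of the 10 genes on each array, by group (x axis: YFP+ CDE, YFP+ DDC, YFP+ UTR and YFP-); symbols mark the replicate number and bars the group mean. Ier3 read 10.86 to 11.23 on the DDC arrays, above 10.06 to 10.40 on the other 5 YFP+ arrays, while Fos, Fosb and Atf3 were spread widely within DDC and within UTR.

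Among the members without a leucine zipper, Ier3 separated the groups most clearly. Ier3 is an immediate early response protein that acts on cell survival and on MAP kinase and NF-kB signalling. Ier3 read 10.08, 10.31 and 10.25 on the CDE arrays, 11.23, 11.05 and 10.86 on the DDC arrays, 10.40 and 10.06 on the UTR arrays, and 9.24, 9.54 and 10.07 on the YFP- arrays. All 3 DDC arrays lay above the other 5 YFP+ arrays, whose CDE and UTR values overlapped. The DDC mean exceeded the CDE mean by 0.83 ± 0.21 (SE, 1.78-fold), and this did not pass the test in the limma fit of all 11 arrays (adjusted p = 0.2636). In a limma fit of the 8 YFP+ arrays alone, the same difference had an SE of 0.13 and passed (adjusted p = 0.03579). That call was lost when any 1 of the 6 CDE and DDC arrays was left out (adjusted p 0.05492 to 0.1356 with the limma fit of the remaining arrays), while the difference stayed between 0.74 and 0.93. Against UTR, the DDC mean was 0.82 higher, with an adjusted p of 0.7044 with 11 arrays and 0.1022 with 8. CDE minus UTR was -0.01 with a 95% interval of -0.53 to 0.51.

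Egr1, a zinc finger factor downstream of serum response factor, showed less separation. It read 10.15, 10.05 and 10.87 on the CDE arrays, 10.71, 10.75 and 10.46 on the DDC arrays, 9.64 and 10.51 on the UTR arrays, and 8.75, 10.48 and 10.29 on the YFP- arrays. The 4 groups overlapped. DDC minus UTR was 0.57 ± 0.50 (SE) and DDC minus CDE 0.29 ± 0.44. Ier2, a small nuclear protein of the immediate early response, read 8.29, 8.46 and 8.60 with CDE, 9.13, 9.004 and 8.54 with DDC, 8.44 and 8.66 in UTR, and 7.97, 9.70 and 8.64 in YFP- cells. DDC 1 and DDC 2 were above every other YFP+ array, and DDC 3 lay among the CDE values. DDC minus CDE was 0.44 ± 0.37 (SE) for Ier2, and neither fit called it (adjusted p = 0.902 with 11 arrays and 0.2613 with 8, limma).

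Atf3, a stress-induced zipper factor related to AP-1, had the largest mean difference between the diets among the 10 genes. It read 8.49, 8.42 and 8.58 on the CDE arrays, 10.93, 10.36 and 8.69 on the DDC arrays, 8.86 and 10.35 on the UTR arrays, and 8.90, 10.70 and 10.93 on the YFP- arrays. The CDE arrays lay together below the remaining 8, and DDC, UTR and YFP- each held both low and high arrays. DDC minus CDE was 1.50 ± 0.68 (SE, 2.82-fold, adjusted p = 0.6657 in the limma fit of 11 arrays and 0.2613 with 8). CDE minus UTR was -1.11 ± 0.76. The lowest DDC array exceeded the highest CDE array by little (8.69 against 8.58), and without DDC 3 the difference between the diets grew to 2.15, while without DDC 1 it was 1.03.

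Of the Fos family, Fos itself read 8.27, 8.82 and 9.04 on the CDE arrays, 10.12, 9.90 and 8.995 on the DDC arrays, 9.03 and 10.28 on the UTR arrays, and 9.11, 10.52 and 10.94 on the YFP- arrays. CDE and DDC overlapped through DDC 3, and UTR spanned most of the DDC range. DDC minus CDE was 0.96 ± 0.52 (SE), CDE minus UTR was -0.94 ± 0.58, and DDC minus UTR was 0.02 ± 0.58. Fosb, which also pairs with Jun proteins, read 7.62, 8.09 and 7.34 with CDE, 8.61, 8.24 and 6.62 with DDC, 6.87 and 8.76 in UTR, and 6.28, 8.98 and 9.77 in YFP- cells. Fosb thus spanned nearly the same range in DDC and UTR, and its differences among the YFP+ groups were 0.14 or smaller in size, with 95% intervals that reached from -2.40 to 2.28 over the 3 comparisons.

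Fosl1 (Fra-1), a Fos relative known to be induced by AP-1 and by MAP kinase signalling, was dimmer and had another pattern. It read 5.24, 5.19 and 5.22 on the CDE arrays, 7.20, 5.91 and 5.22 on the DDC arrays, 4.89 and 4.81 on the UTR arrays, and 4.97, 5.15 and 4.66 on the YFP- arrays. DDC 1 and DDC 2 were above all other arrays, and DDC 3 read the same as the CDE arrays. DDC minus UTR was 1.26 ± 0.45 (SE, 2.40-fold), which did not pass the test after adjustment (adjusted p = 0.9267 with 11 arrays and 0.392 with 8, limma). Without DDC 1 the difference was 0.72, so 1 array carried a large share of it.

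The Jun family varied less. Jun read 10.67, 10.67 and 10.62 on the CDE arrays, 11.02, 10.77 and 10.39 on the DDC arrays, 10.63 and 10.99 on the UTR arrays, and 9.88, 10.68 and 11.16 on the YFP- arrays. Its differences among the YFP+ groups were 0.15 or smaller in size, with 95% intervals between -0.89 and 0.73. Junb, often an antagonist of Jun, read 9.76, 9.78 and 9.99 with CDE, 10.29, 10.04 and 9.89 with DDC, 9.61 and 9.78 in UTR, and 8.96, 11.09 and 10.13 in YFP- cells. All DDC arrays were above both UTR arrays for Junb, with a difference of 0.38 ± 0.47 (SE) that did not pass the test. Jund, the most steadily expressed Jun protein in many tissues, read 8.29, 7.98 and 8.08 with CDE, 8.20, 8.68 and 8.22 with DDC, 8.26 and 8.69 in UTR, and 7.46, 8.83 and 7.99 in YFP- cells. Its 4 groups overlapped.

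The questions put to the 3 YFP+ groups were whether either diet, or the diets against each other, changed these genes in biliary cells. After CDE, 0 of the 10 members passed the test against UTR in either fit, where 0% of all genes passed (limma; at an unadjusted p under 0.05 there were 0 members and 598 genes with 11 arrays, and 0 members and 1492 genes with 8). After DDC, 0 of 10 passed against UTR, against 0% of all genes with 11 arrays and 0.16% with 8 (0.0949% higher and 0.0647% lower). At an unadjusted p under 0.05, 2 members (Fosl1 and Ier3) were left with 11 arrays and 3 (those and Junb) with 8, beside 1082 and 2417 of all genes. Between the diets, 0 of 10 passed with 11 arrays (0.00431% of all genes; at an unadjusted p under 0.05, 1 member and 1792 genes), and 1 of 10, Ier3, passed with 8 arrays (1.16% of all genes, and 0.418% in the same direction; at an unadjusted p under 0.05, 4 members, Fos, Atf3, Ier2 and Ier3, and 3555 genes). The lack of a call does not show that the groups act alike: with 11 arrays the 95% interval of DDC minus CDE ran from -0.04 to 3.04 for Atf3 and from -0.59 to 0.73 for Jun.

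**Figure D2:**
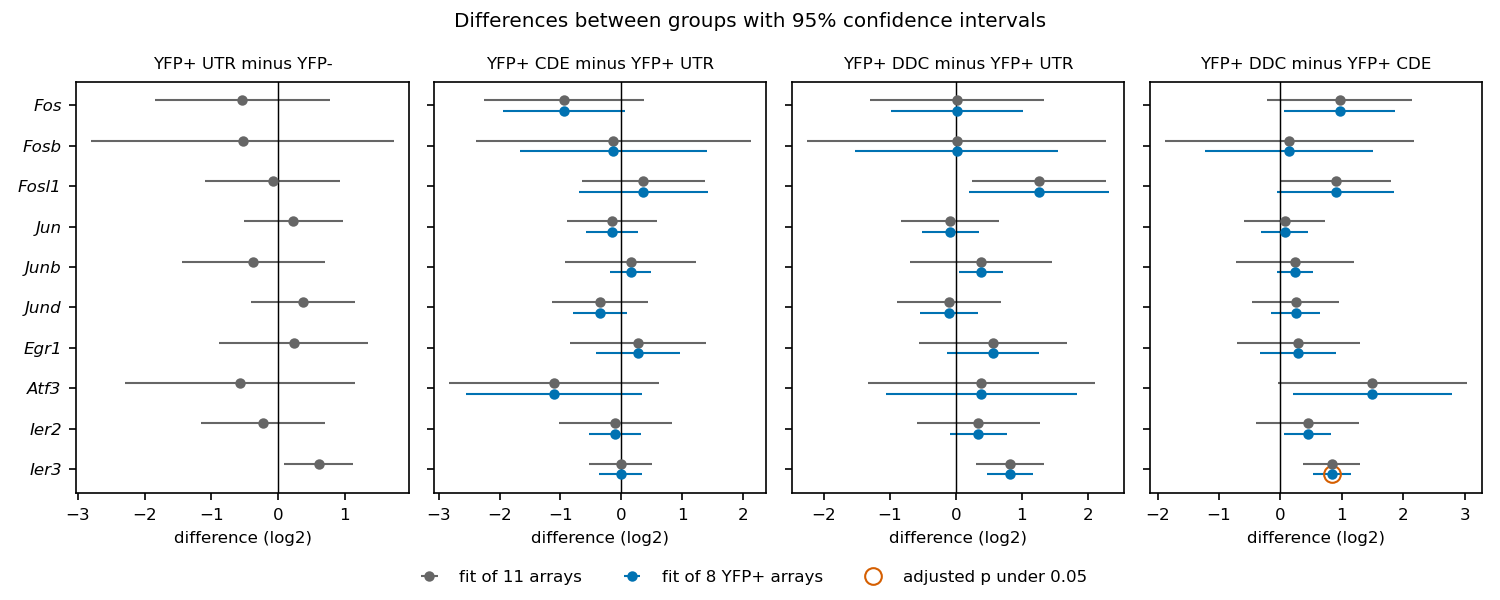
Difference in mean log2 value between groups (x axis) for each gene (y axis), with 95% confidence intervals, from the limma fit of 11 arrays (grey) and of the 8 YFP+ arrays (blue); a ring marks an adjusted p under 0.05. Only Ier3 in DDC minus CDE carries a ring, at 0.83 in the fit of 8 arrays.

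Separation of the arrays gave a similar account. CDE arrays lay wholly above UTR arrays for 1 member (Fosl1, against 11.5% of all genes) and wholly below for 1 (Atf3, against 10.5%). DDC arrays lay wholly above UTR arrays for 3 members (Fosl1, Junb and Ier3, against 12.7% of all genes) and wholly below for 0 (11.8%). DDC arrays lay wholly above CDE arrays for 2 members (Atf3 and Ier3, against 9.64%) and wholly below for 0 (10.6%). All 3 DDC arrays exceeded the 5 other YFP+ arrays for 1 member, Ier3 (4.57% of all genes), and lay below them for 0 (5.41%). The mean difference DDC minus CDE was positive for 10 of 10 members (median 0.37, against 53% of all genes and a median of 0.01), except that without CDE 3 or DDC 2 Fosb turned negative and without DDC 1 Fosb and Jun did. DDC minus UTR was positive for 8 of 10 (median 0.36, against 52.8% of all genes and a median of 0.01). It was positive for 6 of 10 after centring each array on its median, where Fos and Fosb changed sign. The count was 5 of 10 without UTR 1 (median -0.07) or without DDC 1, and 10 of 10 without UTR 2 (median 0.65). CDE minus UTR was positive for 3 of 10 (median -0.11, against 51% of all genes and a median of 0.004), and for 6 of 10 without UTR 2 (median 0.02). These comparisons share arrays with each other, so their signs are not separate evidence.

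In the DDC, UTR and YFP- groups most members were lowest on the same array. DDC 3 was the lowest DDC array for 9 of 10 members, all but Jund, whereas it was lowest for 30.8% of all genes. DDC 1 was the highest for 8 of 10, against 32.9% of all genes. UTR 1 was the lower UTR array for 8 of 10 members, all but Fosl1 and Ier3, against 52.6% of all genes. YFP- 1 was the lowest YFP- array for 9 of 10, all but Fosl1, against 38.5%. In CDE no array stood out in this way: the 3 arrays were lowest for 4, 4 and 2 members and highest for 2, 3 and 5. The mean of the 10 members was 8.69, 8.78 and 8.86 on the CDE arrays, 9.75, 9.47 and 8.79 on the DDC arrays, 8.66 and 9.29 on the UTR arrays, and 8.15, 9.57 and 9.46 on the YFP- arrays. DDC 3 and UTR 1 thus had member means within or just below the range of the CDE arrays, and DDC 1, DDC 2 and UTR 2 lay above it.

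**Figure D3:**
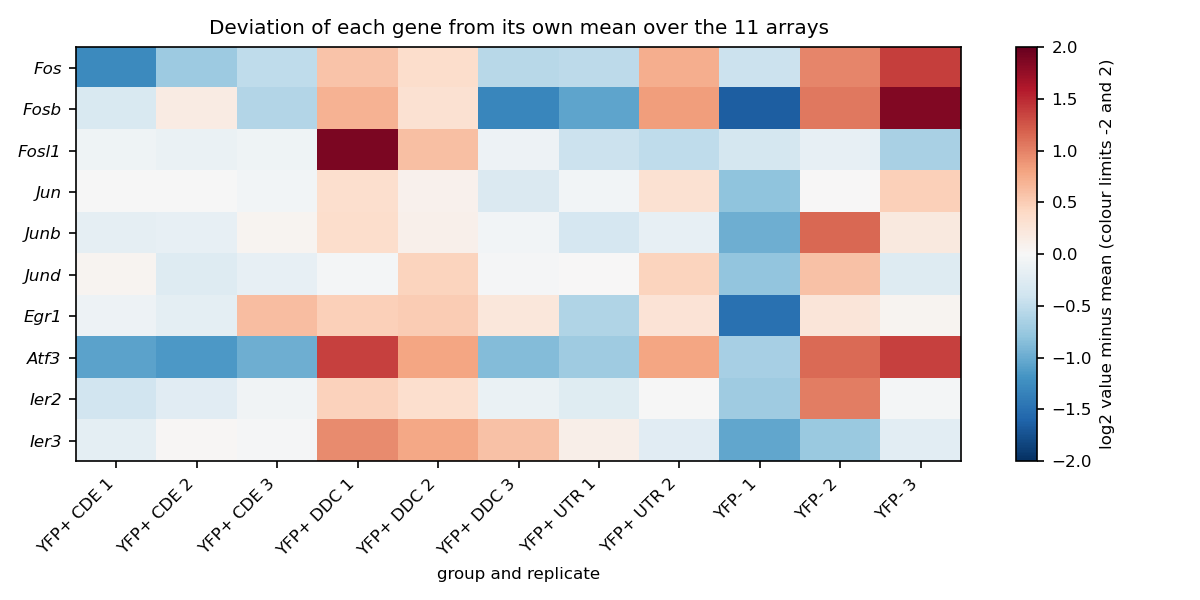
Each cell is the log2 value of a gene (y axis) on an array (x axis) minus that gene's mean over the 11 arrays; red is above and blue below, with colour limits of -2 and 2. Atf3 and Fos share a pattern of high DDC 1, DDC 2, UTR 2, YFP- 2 and YFP- 3, while Ier3 is high on all 3 DDC arrays.

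The spread between replicates was large for some of the members. In DDC, the SD of Atf3 was 1.16 (n = 3), larger than that of 99.9% of all genes in the same group, and the SDs of Fosb (1.06) and Fosl1 (1.01) exceeded those of 99.8%, while the SDs of Egr1 (0.16) and Ier3 (0.19) lay at percentiles 51.3 and 61.0. In UTR, the SDs of Fosb (1.33, n = 2), Atf3 (1.06) and Fos (0.88) lay at percentiles 99.8, 99.5 and 99.2, and that of Fosl1 (0.05) at 29.5. In CDE, the SDs of Egr1 (0.45), Fos (0.40) and Fosb (0.38) lay at percentiles 96.7, 95.3 and 94.6, and those of Atf3 (0.08) and Jun (0.03) at 30.4 and 6.44. The median SD over the 10 members was 0.32 in DDC against 0.15 over all genes, 0.28 against 0.11 in UTR, 0.91 against 0.26 in YFP-, and 0.14 against 0.12 in CDE. The SD was above the median of all genes for 10 of 10 members in DDC and for 6 of 10 in CDE.

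Markers of biliary and of other cells were set beside this order of arrays. DDC 1 was the lowest DDC array for 6 of 6 biliary markers (mean 10.14, against 10.35 on DDC 2 and 10.34 on DDC 3). Each UTR array was the lower one for 3 of the 6. In DDC, the mean of 8 neutrophil and monocyte markers had the order of the member means, at 6.38, 6.13 and 5.73, but not every marker did. DDC 3 was the lowest DDC array for 4 of the 8, among them S100a8 (7.40, 5.64 and 4.21) and S100a9 (6.81, 6.35 and 4.75). DDC 1 was the lowest for 3, by small differences: Itgam (4.93, 5.30 and 5.27), Csf3r (4.38, 4.46 and 4.46) and Lcn2 (13.16, 13.19 and 13.24). Lcn2 did not mark other cells here, as it read 12.28 to 13.24 on the YFP+ arrays and 6.77 to 11.39 on the YFP- arrays. In CDE the same marker mean varied as widely, at 5.50, 6.58 and 6.13, while the member means stayed within 8.69 to 8.86. In UTR the mean was 5.78 and 6.06, and 8 endothelial markers averaged 5.51 and 6.05. UTR 2 was the higher UTR array for 8 of 8 endothelial markers and for 5 of 8 neutrophil and monocyte markers. Of 8 macrophage markers, UTR 1 was the higher UTR array for 6, and CDE 3 the highest CDE array for 8. All 8 markers of the neutrophil, endothelial and macrophage lists were measured. No value on these arrays was below 2.55, so a low value does not show that a transcript was absent. The endothelial marker Pecam1 read 4.79 to 5.21 on the 8 YFP+ arrays against 10.11 to 11.85 on the YFP- arrays. Other endothelial markers varied more within YFP+: Cdh5 read 5.45 on UTR 1 and 7.25 on UTR 2, and Clec4g ran from 4.80 to 6.73. Of 8 hepatocyte markers, 7 were measured, and their mean was 8.18 to 9.35 with CDE, 8.25 to 8.50 with DDC, 8.13 and 8.17 in UTR, and 7.88 to 9.23 on the YFP- arrays. They did not move together: Alb read 11.70 to 12.58 on the YFP+ arrays and 10.61 to 12.44 on the YFP- arrays, and Cyp2e1 5.10 to 6.09 against 6.43 to 10.13, while Fgb varied from 7.08 to 11.22 within the YFP+ arrays. The part of these cells in the order of arrays was not tested.

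Genes whose pattern over the 11 arrays lay nearest to a member's were found by the root mean square difference after each gene was centred on its own mean. Among the members, Junb and Ier2 were nearest to each other (0.16), and the nearest member to Fos was Atf3 (0.37). Among other genes, Atf3 was nearest to the immediate early gene Csrnp1 (0.50), and the 3 genes nearest to Fos were Snhg20 (0.39), Pycard (0.42) and Nfkbiz (0.42). Fosl1 was nearest to Gm11517 (0.19) and Anxa10 (0.23), and Ier3 to Cxcl17 (0.20), Basp1 (0.24) and Fetub (0.24). For Fosb the nearest was Snora75 (0.50). Jun and Jund had nearest genes at 0.14 (A230056P14Rik and Prr3), and Junb, Egr1 and Ier2 at 0.20 (Eno3), 0.30 (Smim8) and 0.20 (Tnfrsf13c). These distances are to be read against each member's own spread. The SD over the 11 arrays was 0.34 for Jun, 0.39 for Jund, 0.84 for Fos and 1.07 for Atf3. Each nearest gene was picked as the closest of all other genes, and shared regulation was not tested.

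The wider pathway was followed in 7 lists of 137 genes, of which 127 were measured. The lists were chosen with earlier results of these data known. An excess of a list over the share of all genes is therefore not separate support for an effect of a diet. The list counts stand beside these shares of all 23185 genes (limma). In DDC minus CDE, 0.418% passed as higher and 0.742% as lower with 8 arrays, and 0% and 0.00431% with 11. An unadjusted p under 0.05 was met by 3555 genes with 8 arrays and 1792 with 11. In DDC minus UTR, 0.0949% passed as higher and 0.0647% as lower with 8 arrays, and 0% with 11. The unadjusted counts there were 2417 and 1082 genes. The list of 36 other immediate early genes had mean values of 7.79, 7.84 and 7.88 on the CDE arrays, 8.61, 8.38 and 8.10 on the DDC arrays, and 7.96 and 8.09 on the UTR arrays. All DDC arrays were above all CDE and UTR arrays, DDC 3 by little (8.10 against 8.09 on UTR 2), and DDC 3 was the lowest DDC array for 30 of the 36 genes and DDC 1 the highest for 26. The difference DDC minus CDE was positive for 34 of 36 (median 0.48, against 53% of all genes and a median of 0.01). DDC minus UTR was positive for 34 of 36 (median 0.26, against 52.8% of all genes). CDE minus UTR was positive for 8 of 36 (median -0.17, against 51% of all genes). In the limma fit of 8 arrays, 3 of the 36 passed as higher in DDC than in CDE and 0 as lower (22 at an unadjusted p under 0.05), and with 11 arrays 0 passed (7 at an unadjusted p under 0.05). The 3 genes were Klf4 (difference 1.31 ± 0.21, adjusted p = 0.03549) and Egr3 (0.60 ± 0.10, adjusted p = 0.04048), both zinc finger factors, and Ier5l (0.81 ± 0.15, adjusted p = 0.04952). Klf4 read 5.79, 5.87 and 6.21 with CDE, 7.70, 7.22 and 6.86 with DDC, and 6.63 and 6.82 in UTR. All 3 DDC arrays exceeded the other 5 YFP+ arrays for 11 of the 36 genes (30.6%, against 4.57% of all genes), Egr3, Klf4, Ier5, Ier5l, Sik1, Ptgs2, Plk2, Plk3, Gadd45a, Nfkbiz and Phlda1.

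The other AP-1 partners gave no call. Of 11 other basic zipper factors measured, 0 passed in either direction between the diets in either fit (limma; 1 with 11 arrays and 4 with 8 at an unadjusted p under 0.05). The lowest p-values with 8 arrays were those of Maff (DDC minus CDE 0.50 ± 0.11, adjusted p = 0.07843) and Fosl2 (0.50 ± 0.11, adjusted p = 0.08419), a small Maf protein and a Fos relative. The list mean was 7.25 to 7.43 with CDE, 7.29 to 7.38 with DDC, and 7.33 and 7.42 in UTR, so the groups overlapped. Upstream, among 21 genes of serum response factor and the MAP kinases, 0 passed among the YFP+ groups in either fit (for DDC minus UTR, 2 with 11 arrays and 4 with 8 at an unadjusted p under 0.05), and Mapk9, which encodes a Jun kinase, had the lowest p for DDC minus UTR (-0.50 ± 0.09, adjusted p = 0.1022 with 8 arrays, limma). Among 16 feedback inhibitors of MAP kinases, 1 passed as higher and 1 as lower in DDC than in CDE with 8 arrays: the phosphatase Dusp10 (1.06 ± 0.19, adjusted p = 0.04572) and Errfi1, an inhibitor of the EGF receptor (-0.90 ± 0.13, adjusted p = 0.02725). With 11 arrays 0 of the 16 passed (limma; 1 at an unadjusted p under 0.05), with adjusted p-values of 0.6995 for Dusp10 and 0.5665 for Errfi1.

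Of 17 measured genes known as AP-1 targets, 3 passed as higher and 0 as lower in DDC than in CDE with 8 arrays, and 2 as higher in DDC than in UTR. Timp1, an inhibitor of matrix metalloproteinases, read 6.54, 6.69 and 6.68 with CDE, 8.42, 8.64 and 8.15 with DDC, and 6.49 and 6.28 in UTR. DDC 3 was the lowest DDC array for Timp1 too, and the DDC group did not overlap the others. The difference was 1.77 ± 0.14 against CDE (adjusted p = 0.007165) and 2.02 ± 0.15 against UTR (adjusted p = 0.01811, limma, 8 arrays). Cd44, a hyaluronan receptor, read 10.27, 10.28 and 10.27 with DDC and 8.91 to 9.62 on the other YFP+ arrays, and passed against both (0.75 ± 0.11 and 1.20 ± 0.13). Hbegf, a ligand of the EGF receptor, passed against CDE (1.20 ± 0.16, adjusted p = 0.02136) but not against UTR (0.91 ± 0.18, adjusted p = 0.1199). All 3 DDC arrays exceeded the other YFP+ arrays for 6 of the 17 (35.3%, against 4.57% of all genes), Plau, Plaur, Timp1, Cd44, Ccl2 and Hbegf. The list was chosen with earlier results of these data known, so these shares describe the arrays and test nothing. With 11 arrays 0 of the 17 passed among the YFP+ groups (limma; at an unadjusted p under 0.05 there were 3 between the diets and 3 for DDC minus UTR).

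The 12 genes of the integrated stress response, the pathway through Atf4 that can induce Atf3, averaged 7.50, 7.52 and 7.36 with DDC, 7.10 to 7.20 with CDE, and 7.27 on both UTR arrays. Of these, 1 passed as higher in DDC than in CDE with 8 arrays: Ddit4, an inhibitor of mTOR signalling (1.68 ± 0.19, adjusted p = 0.01404, limma). With 11 arrays 0 of the 12 passed (4 at an unadjusted p under 0.05), and Ddit4 had an adjusted p of 0.3105. It read 7.07, 7.69 and 7.52 with CDE, 9.29, 9.20 and 8.83 with DDC, and 8.33 and 7.96 in UTR, without overlap between the groups. DDC arrays exceeded all other YFP+ arrays for 4 of the 12 (33.3%, against 4.57% of all genes: Atf5, Trib3, Sesn2 and Ddit4). This list too was chosen with earlier results of these data known.

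The heat shock chaperones, which answer unfolded protein and heat, had another order of arrays than the members in UTR and CDE, and partly the same order in DDC. Of 14 measured, 0 passed among the YFP+ groups in either fit (limma). Between the diets, 2 with 11 arrays and 3 with 8 had an unadjusted p under 0.05, beside 1792 and 3555 of 23185 genes. Their mean was 9.49, 8.85 and 9.16 on the CDE arrays, 9.43, 9.20 and 9.24 on the DDC arrays, and 9.53 and 9.17 on the UTR arrays. UTR 1 was the higher UTR array for 12 of 14 chaperones, whereas it was the lower one for 8 of the 10 immediate early members. CDE 1 was the highest CDE array for 12 of 14 and CDE 2 the lowest for 12 of 14, an order that the 10 members did not show. For example, Hsph1 read 9.49 on UTR 1 and 8.58 on UTR 2, and 9.23, 7.98 and 8.42 on the CDE arrays. In DDC, DDC 1 was the highest array for 10 of 14 chaperones, as it was for 8 of the 10 members. DDC 2 and DDC 3 were each the lowest for 7 of 14 chaperones, whereas DDC 3 was the lowest for 9 of the 10 members.

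**Figure D4:**
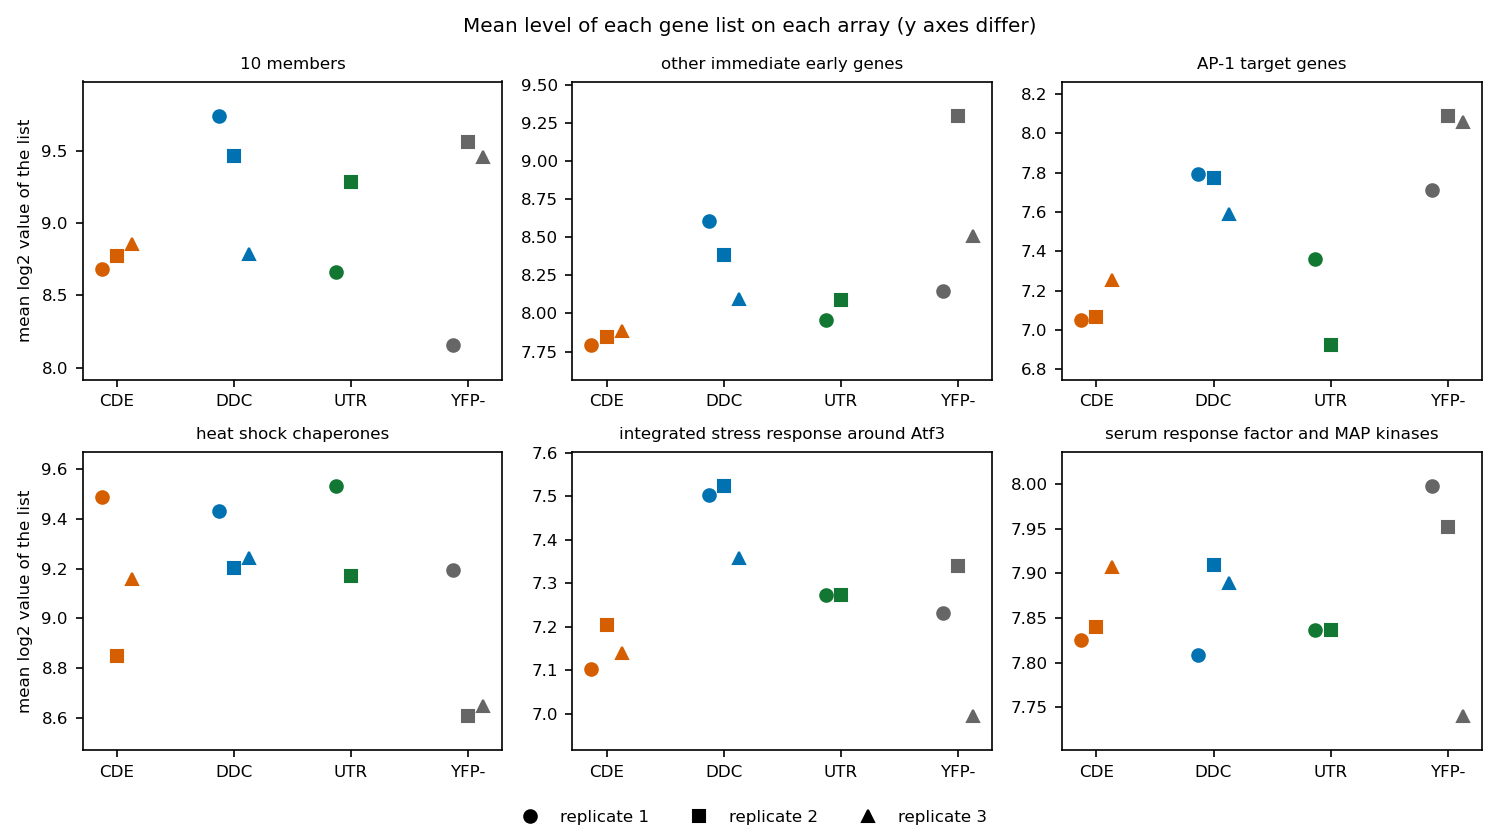
Mean log2 value (y axis, scale differs by panel) of the 10 members and of 5 pathway lists on each array, by group (x axis), with symbols for the replicate number. The other immediate early genes and the AP-1 targets are higher on all 3 DDC arrays than on the other YFP+ arrays, and the chaperones are highest on CDE 1, DDC 1 and UTR 1 within their groups.

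The comparison of biliary with other untreated liver cells addressed the sorted YFP label. Between YFP+ UTR and YFP- cells, 0 of 10 members passed, where 18.9% of all genes did (limma, 11 arrays, with 1 member and 7292 genes at an unadjusted p under 0.05). The differences ran from -0.57 (Atf3) to 0.61 (Ier3), and the arrays of the groups overlapped for all 10 members, while 22.5% of all genes were wholly higher and 20.5% wholly lower in YFP+ UTR. Leaving out YFP- 1, the YFP- array highest in biliary, endothelial and stellate cell marker means, gave 1 call, for Junb (-0.92, adjusted p = 0.04385, limma). Leaving out YFP- 3 gave 1 call, for Ier3 (0.84, adjusted p = 0.01403, limma). With the 3 YFP+ groups averaged, 1 of 10 members passed, Ier3, where 30.5% of all genes did. Ier3 was 0.88 ± 0.17 (SE, 1.84-fold, adjusted p = 0.004084, limma) higher in YFP+ cells, and it passed with each of the YFP- arrays left out (0.69 to 1.11). Leaving out YFP- 1 also brought Fos (-1.38, adjusted p = 0.02325) and Junb (-0.74, adjusted p = 0.03266) below the threshold, both lower in YFP+ cells, and leaving out YFP- 2 brought Jund (0.59, adjusted p = 0.0499). The 3 YFP- arrays held different mixtures of cells by their markers, and the part of that mixture in these differences was not tested.

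The related lists held calls between YFP+ UTR and YFP- cells, where 10.4% of all genes passed as higher and 8.46% as lower. Of 36 other immediate early genes, 1 passed as higher in YFP+ UTR, the matricellular gene Ccn1 (4.08 ± 0.48, adjusted p = 0.0005641), and 9 as lower, among them Klf2 (-3.23 ± 0.31, adjusted p = 0.0002085), a factor of endothelium and lymphocytes, and Klf4 (-1.59 ± 0.24). Of 11 other basic zipper factors, 0 were higher and 5 lower, with Maf, a factor of macrophages and endothelium, at -3.55 ± 0.42, Batf at -2.09 ± 0.38 and Batf2 at -1.61 ± 0.28. Of 14 chaperones, 4 were higher and 0 lower, Dnajb4 at 0.76 ± 0.10, Hspb8 at 2.44 ± 0.36 and Bag3 at 1.20 ± 0.28 among them. Of 17 AP-1 targets, 2 were higher and 4 lower, with Vim at -3.06 ± 0.26, Mmp13 at -2.27 ± 0.21 and Tgfb1 at -3.13 ± 0.33. For the feedback inhibitors the counts were 3 and 3 of 16, for serum response factor and the MAP kinases 2 and 4 of 21, and for the integrated stress response 2 and 1 of 12.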

How the data were processed

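The values are log2 expression values that the authors deposited, 1 per feature and array. Their normalization and probe summary were not stated in what was used here, and base 2 was inferred from their range (2.55 to 13.57), so every log2 difference and fold rests on it. Of 25206 features, 23185 had 1 gene symbol, 0 several and 2021 none listed. All symbols matched RefSeq (GRCm38.p6) by gene number. The 4 group means entered 1 linear model in limma 3.58.1, R 4.3.3 (lmFit and eBayes, two-sided, no further normalization) over 11 arrays with 7 residual degrees of freedom, and p-values were adjusted by Benjamini-Hochberg over 23185 genes at 0.05. The fit of the 8 YFP+ arrays (5 residual degrees of freedom) was one of several alternatives. Scripts were tested on simulated data. Errors are SE for differences and SD for means, and the number of arrays limits the precision. Members and lists were chosen with earlier results of these data known. Named genes are all members and, per list and comparison, up to 3 called genes or 2 uncalled ones with the lowest p. Others named with values, such as S100a8, Pecam1 and Hsph1, and the genes counted for separated DDC arrays, were picked after their values were seen. Some listed genes were not analysed here.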

Additional observations from a re-analysis of the deposited data

Results flagged for a closer look

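Ier3 is listed because a test of the difference between the diets itself called it under some alternatives. These were the 8 YFP+ arrays alone, only the arrays of the groups compared, and array weights, and no other alternative called it. DDC minus CDE was 0.83 on the log2 scale (1.78-fold) in the limma fit of the 8 YFP+ arrays, with an adjusted p of 0.03579, and DDC was higher in 3 of 3 arrays. The range over its alternatives was 0.02703 to 0.7311, and the 11-array fit did not call it (adjusted p = 0.2636).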

How the results depend on the processing

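The arrays number 2 or 3 per group, and under the alternatives run no member other than Ier3, Junb, Fos and Jund passed the test in any comparison. Among alternatives that keep every replicate of the groups fitted, 386 values of single members kept direction and call, 4 gained a call and 10 changed sign. The cause was not tested where none is given.

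Counts of genes moved by more than 1.5 times as follows. Fitting the 8 YFP+ arrays alone gave 269 genes and 1 member in DDC minus CDE and 37 genes in DDC minus UTR. Fitting only the arrays of the groups compared gave 211 genes and 1 member in DDC minus CDE and 931 genes in YFP+ UTR minus YFP-. Array weights gave 337 genes and 1 member in DDC minus CDE, 11 genes in DDC minus UTR, 1 gene in CDE minus UTR and 4534 genes for YFP+ against YFP-. For DDC minus CDE, trend and robust fitting gave 3 genes, median centring 6 and the filter on low values 2. Quantile normalization gave 1 member (Ier3) in YFP+ UTR minus YFP-, and for YFP+ against YFP- it turned Junb to 0.064 and Ier2 to 0.049. For DDC minus UTR, array weights gave Fos -0.041 and Fosb -0.095, and median centring gave Fos -0.0055 and Fosb -0.013.

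The replicate numbers did not pair the arrays: of 15 pairs of same-numbered arrays in different groups, 1 had deviations correlating above 0.1 (-0.07 to 0.13). The replicate block gave 0 genes in DDC minus CDE and Fos at -0.047 in DDC minus UTR. In the 8 YFP+ arrays, an alternative chosen after the data were seen, the replicate block gave 61 genes in DDC minus CDE, with Ier3 at an adjusted p of 0.08746, Fosb at 0.26 and Ier3 at 0.024 in CDE minus UTR, and Jun at 0.010 in DDC minus UTR.

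Leaving out 1 array gave the following ranges, those of the 8 YFP+ arrays (also added after the data were seen) included. In YFP+ UTR minus YFP-, 2306 to 5817 genes and 0 to 1 members passed, and Fos ran from -1.16 to 0.091, Fosb from -1.56 to 0.41, Fosl1 from -0.21 to 0.033, Jun from -0.11 to 0.53, Junb from -0.92 to 0.14, Egr1 from -0.31 to 0.67, Atf3 from -1.32 to 0.17 and Ier2 from -0.62 to 0.25. For YFP+ against YFP-, 1 to 3 members passed, and Fosb ran from -1.60 to 0.14, Jun from -0.19 to 0.45, Junb from -0.74 to 0.32, Jund from -0.092 to 0.59, Egr1 from -0.028 to 0.84 and Ier2 from -0.54 to 0.33. In CDE minus UTR, 0 to 46 genes passed, the most without UTR 1, and Fosb ran from -1.07 to 0.81, Jun from -0.33 to 0.028, Egr1 from -0.16 to 0.71, Ier2 from -0.21 to 0.013 and Ier3 from -0.18 to 0.15. In DDC minus UTR, 0 to 103 genes passed, the most without UTR 1, and Fos ran from -0.61 to 0.65, Fosb from -0.93 to 0.96, Jun from -0.26 to 0.10, Jund from -0.32 to 0.11 and Atf3 from -0.36 to 1.14. In DDC minus CDE, 0 to 123 genes passed, Fosb ran from -0.25 to 0.74 and Jun from -0.078 to 0.24.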
